A study of Mus musculus with 6 samples.

Results

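Connexins, pannexins and cadherins are the membrane proteins through which the cells of osteogenic stroma exchange small molecules and hold on to one another. The 8 genes Gja1, Gjc1, Panx1, Panx3, Cdh2, Cdh11, Cdh13 and Cdh15 were followed among the 54532 genes of a count table. They were chosen by name as contact and channel genes of this tissue, with earlier results of these data known. All 8 were found in the table, and 7 of them passed the filter on low counts, which left 14624 genes for testing. The cells were primary wild type mouse marrow stromal cells (BMSCs in the names of the study), which attach to plastic and can become osteoblasts. Both groups were kept for 7 days in osteogenic medium, in which dexamethasone was at 100 nM, β-glycerophosphate at 10 mM and ascorbic acid at 50 μg/mL, and the Ni group also received nickel at 0.1 μM while the control group received vehicle. The dexamethasone concentration is that of the sample labels. The methods text of the study names a lower one, and which of them these cultures received was not settled here. Each group was made up of 3 biological replicates, and strain, age and sex of the mice were not given in the sources used here. In such cultures fewer cells of a type and less RNA per cell cannot be told apart.

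Connexins assemble in rings of subunits, and the rings of neighbouring cells dock to form gap junctions, through which ions and small metabolites pass. Pannexins resemble them in shape but form channels between the cytoplasm and the outside or an internal store, and are known as routes for ATP and calcium. Classical cadherins such as N-cadherin (Cdh2) and cadherin 11 (Cdh11) bind their like on the next cell and are linked to actin by catenins. Osteoblasts and osteocytes form networks joined by connexin 43, the product of Gja1, and lining and precursor cells of bone carry N-cadherin and cadherin 11.

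Libraries held from 16101033 to 18642504 counts. Over the log2 CPM of all genes tested, control replicate 3 lay nearer to the Ni libraries (mean distance, 1 minus Pearson's r, 0.0131) than to the other controls (0.0220). The members' fold changes are therefore given with and without it. Leaving out the control most like the Ni libraries tends to widen group differences by construction, so values without it are no separate support. Genes at an edgeR unadjusted p under 0.05 then went from 13.4% to 27.4%. With any other single library left out, no member passed an edgeR adjusted p of 0.05. Summed CPM (counts scaled to library size and by TMM, edgeR's trimmed mean method) of 18 osteoblast markers ran from 15624 to 29258 in the controls, with control replicate 3 at the top, and from 33344 to 44056 in the Ni libraries. All 18 had a positive log2 fold change with an unadjusted p under 0.05, with a median of 1.10, beside 7.59% of all genes higher. None passed an adjusted p of 0.05. The gene lists were chosen with earlier results of these data known. The summed CPM of 12 macrophage markers, from 19159 to 24171 in the controls and from 19048 to 21108 in the Ni libraries, overlapped between groups, a sum of which Lyz2 alone made up from 9616 to 15097 CPM. With each macrophage gene weighted equally, the mean log2 CPM relative to the controls was 0.01, 0.05 and -0.06 in the controls and -0.19, -0.19 and -0.22 with nickel, every Ni library below every control. Of the 12, 4 were lower in Ni at an unadjusted p under 0.05 and none higher, beside 5.83% of all genes lower and 7.59% higher. The summed CPM of 10 general stromal markers ran from 3366 to 5084 in the controls and from 5248 to 5891 with nickel. With each stromal gene weighted equally the groups overlapped, with control replicate 3 at 0.39 above Ni replicate 2 at 0.32. The cultures labelled as mesenchymal stem cells thus carried both stromal and macrophage transcripts, and the part of culture make-up in the values below was not tested.

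Every tested member had a positive log2 fold change in Ni against control, from 0.01 for Cdh11 to 2.41 for Panx3, with a median of 0.37 beside -0.01 over all genes tested. None of the 7 passed an adjusted p of 0.05 in the quasi-likelihood test of edgeR, adjusted over all genes by Benjamini and Hochberg's method, and the percentage of all genes that passed was 0 as well, the smallest adjusted p being 0.185. At an unadjusted p under 0.05 there were 4 of 7, namely Panx3, Cdh2, Cdh13 and Gja1, all higher in Ni, beside 7.59% of all genes higher and 13.4% in either direction. All 3 Ni libraries lay above all 3 controls for 2 of the 7, Panx3 and Cdh2, beside 7.97% of all genes. Without control replicate 3, 4 of 7 passed an adjusted p of 0.05 (Gja1, Panx1, Cdh2 and Cdh13), beside 8.69% of genes higher in Ni. DESeq2's Wald test on all 6 libraries passed 2, Panx3 and Cdh2, beside 1.46%.

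**Figure D1:**
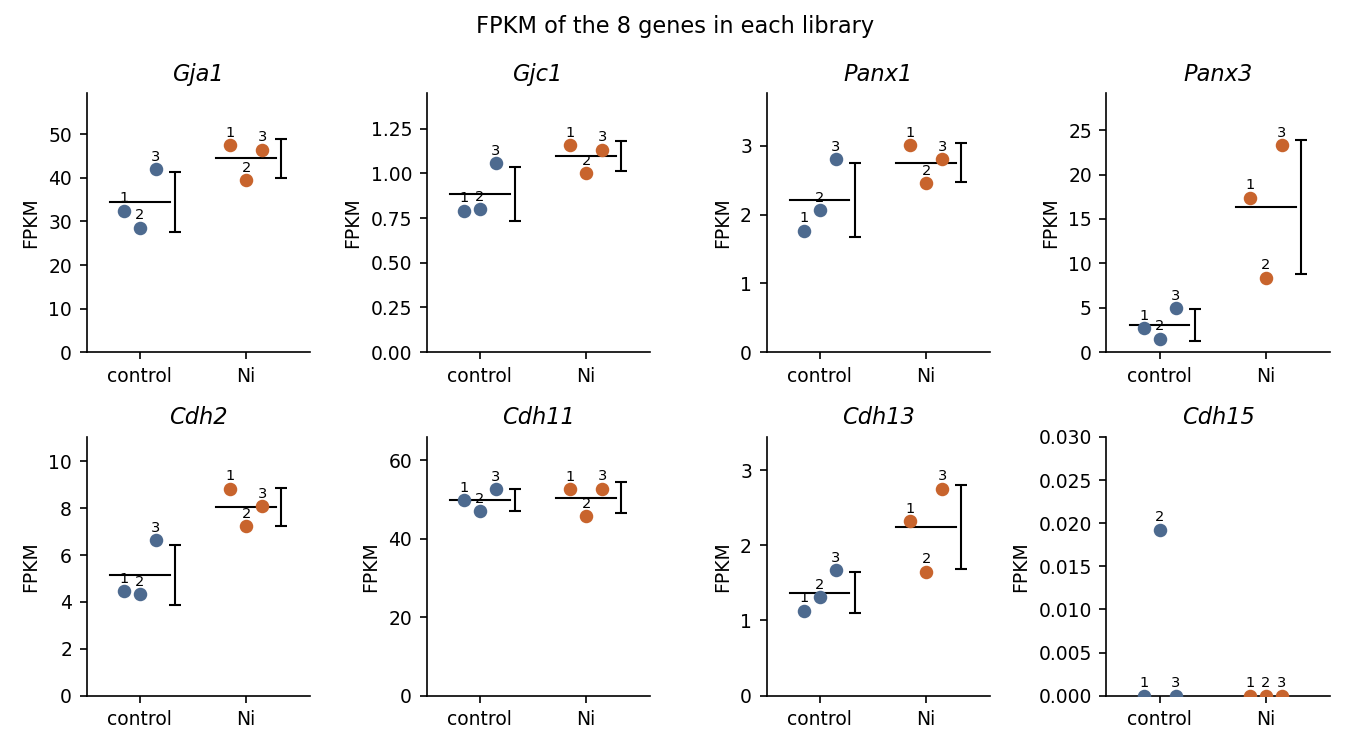
FPKM of the 8 genes in the control (blue) and Ni (orange) libraries, 1 point per library marked with its replicate number, with the mean (line) and SD (bar, n = 3; left out for Cdh15, which had a single count). The Ni points of Panx3 and Cdh2 all lie above the control points, and those of Cdh11 lie just above and just below them. Control replicate 3 is the highest control point for the 7 tested genes.

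FPKM, which divides counts by gene length and library size, allows levels to be compared between genes. By mean FPKM over the 6 libraries the order was Cdh11 (50.1), Gja1 (39.4), Panx3 (9.72), Cdh2 (6.60), Panx1 (2.48), Cdh13 (1.80), Gjc1 (0.990) and Cdh15 (0.00321). Each gene exceeded the next in all 6 libraries, with 1 exception. Panx3 exceeded Cdh2 in 3 of 6 libraries, the 3 with nickel, and lay below it in the 3 controls.

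Gja1 encodes connexin 43, the main gap junction protein of bone cells (ENSMUSG00000050953, chr10:56377330-56402513, plus strand, GRCm38). Its level was 32.5, 28.6 and 42.0 FPKM in control replicates 1, 2 and 3 and 47.5, 39.4 and 46.4 FPKM in Ni replicates 1, 2 and 3. Control replicate 3 lay above Ni replicate 2, so the groups overlapped. The log2 fold change was 0.37 ± 0.15 (SE, n = 3 per group), a 1.29-fold difference with a 95% interval from 1.03 to 1.62 and an edgeR adjusted p of 0.350. Without control replicate 3 it was 0.54, with an edgeR adjusted p of 0.00359. On all 6 libraries with no filter on low counts the edgeR adjusted p was 0.0392, so this call moved with the libraries and the filter used.

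Gjc1 encodes connexin 45, a gap junction protein that can combine with connexin 43 (ENSMUSG00000034520, chr11:102799579-102819700, minus strand). Counts were 73, 64 and 89 in the controls and 107, 88 and 103 in the Ni libraries. The groups overlapped, since control replicate 3 stood above Ni replicate 2 both in counts and in FPKM (1.06 against 1.00). Between groups the log2 fold change was 0.31 ± 0.21 with an edgeR adjusted p of 0.540, and 0.47 with an adjusted p of 0.199 without control replicate 3. The FPKM of Gja1 was 41.0, 35.8 and 39.7 times that of Gjc1 in the controls and 41.0, 39.4 and 41.0 times in the Ni libraries. This ratio differed by 0.06 on the log2 scale between groups, within the spread of the controls (SD 0.10, n = 3; exact permutation test, two-sided, p = 0.7, smallest possible 0.1).

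Of 20 connexin genes listed, 5 were tested and 5 had no count in any library. Gja1 made up from 78.5% to 88.4% of the summed connexin FPKM in a library, and its share was 88.4%, 86.4% and 78.6% in the controls and 79.9%, 79.2% and 78.5% in the Ni libraries. Gjb5, which encodes a connexin known from skin and placenta, stood at 2.37, 1.93 and 5.83 FPKM in the controls and 6.48, 5.33 and 7.29 FPKM with nickel. Its log2 fold change was 0.91 ± 0.38 (edgeR adjusted p 0.365), with control replicate 3 inside the range of the Ni libraries. Of the 5 tested connexins, 2 had an unadjusted p under 0.05, Gja1 and Gjb5, and both were higher in Ni, beside 7.59% of all genes. Gjb5 reached a log2 fold change of 1.57 with an edgeR adjusted p of 0.000491 without control replicate 3.

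Panx3 encodes pannexin 3, a channel of osteoblasts and of prehypertrophic cartilage known to pass ATP at the surface and calcium from the endoplasmic reticulum (ENSMUSG00000011118, chr9:37659902-37669235, minus strand). It stood at 2.69, 1.51 and 4.98 FPKM in the controls, from 170, 83 and 288 counts. With nickel it stood at 17.4, 8.39 and 23.3 FPKM, from 1105, 506 and 1455 counts. The lowest Ni library, replicate 2, lay above the highest control, replicate 3, and both groups spread widely. The log2 fold change was 2.41 ± 0.54 (SE, n = 3 per group), 5.32-fold with a 95% interval from 2.13 to 13.3, which placed Panx3 at rank 10 by log2 fold change and rank 226 by p among 14624 genes. Its edgeR adjusted p was 0.272 on all libraries and 0.0752 without control replicate 3, where the log2 fold change was 2.95. DESeq2's Wald test gave an adjusted p of 0.0107. Part of a cartilage list also stood higher with nickel. The summed CPM of its 8 genes ran from 149.6 to 248.8 in the controls and from 287.3 to 337.3 with nickel, without overlap. With each gene weighted equally, the mean log2 CPM relative to the controls was 0.09, -0.31 and 0.22 in the controls. In the Ni libraries it was 0.73, -0.07 and 0.58, so the groups overlapped. Of the 5 tested, 1 had a log2 fold change of -0.95. At an unadjusted p under 0.05, 4 were higher in Ni and none lower, beside 7.59% of all genes higher. None of the 5 passed an adjusted p of 0.05. Among them Col10a1, the collagen of hypertrophic cartilage, had a log2 fold change of 1.02 and Sox9, the cartilage transcription factor, 0.90, with edgeR adjusted p-values of 0.222 and 0.273. Acan, a defining cartilage gene, had at most 4 counts in a library, and the part of such cells in the Panx3 values was not tested.

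Panx1 encodes pannexin 1, the widely expressed ATP release channel (ENSMUSG00000031934, chr9:15002128-15045478, minus strand). Its level was 1.76, 2.06 and 2.81 FPKM in the controls and 3.01, 2.46 and 2.80 FPKM with nickel. Control replicate 3 lay above Ni replicates 2 and 3, and the other controls lay below all Ni libraries. Panx1 had a log2 fold change of 0.31 ± 0.18 with an edgeR adjusted p of 0.467. Without control replicate 3 it was 0.53 with an edgeR adjusted p of 0.0380.

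The ratio of Panx3 to Panx1 was higher in every Ni library than in any control. Panx3 was 1.52, 0.732 and 1.77 times as abundant as Panx1 by FPKM in the controls and 5.79, 3.42 and 8.32 times in the Ni libraries. The groups did not overlap, and the mean log2 ratio was 2.13 higher with nickel (exact permutation test, two-sided, p = 0.1, the smallest that 3 libraries against 3 allow). Without control replicate 3 it was 2.38 higher. Panx3 took 60.4%, 42.1% and 64.0% of the summed pannexin FPKM in the controls and 84.3%, 76.7% and 88.8% with nickel. The remaining pannexin, Panx2, known mainly from the nervous system, was not tested because of low counts. Its counts were 0, 1 and 0 without nickel and 15, 6 and 10 with it, a ratio of 29.2 per total count with an exact 95% interval from 4.87 to 1190 that covers counting error only.

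**Figure D2:**
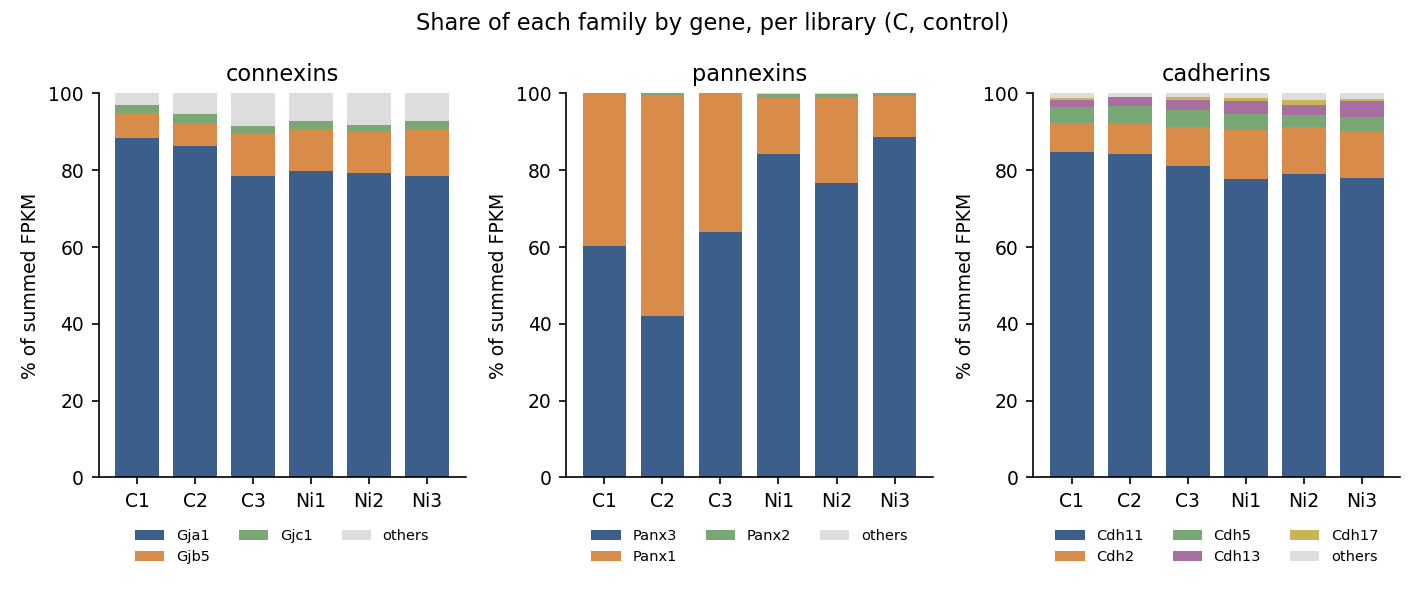
Share of the summed FPKM of connexin, pannexin and cadherin genes taken by each gene, in percent, in 3 control (C) and 3 Ni libraries. Panx3 takes more of the pannexin total in each Ni library than in any control, Cdh11 takes less of the cadherin total, and Gja1 holds from 78.5% to 88.4% of the connexin total throughout.

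Promoter sequence from RefSeq (GRCm38.p6) was at hand for 3 of the 8 genes, Gja1, Panx1 and Cdh15. Shown are the 250 bases before the RefSeq start of Gja1 (chr10:56377050-56377299, plus strand) and of Panx1 (chr9:15045479-15045728, minus strand), since both are expressed channel genes whose fold changes were alike in size. Capitals mark motifs searched on both strands, namely AP-1 (TGAGTCA or TGACTCA), the RUNX core (TGTGGT or ACCACA) and the GC box (GGGCGG or CCGCCC), none of which overlapped another.
Gja1: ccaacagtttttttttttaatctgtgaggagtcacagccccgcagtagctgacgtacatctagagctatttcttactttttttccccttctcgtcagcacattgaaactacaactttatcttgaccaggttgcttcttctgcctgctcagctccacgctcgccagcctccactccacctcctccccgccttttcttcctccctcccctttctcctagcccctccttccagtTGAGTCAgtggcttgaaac
Panx1: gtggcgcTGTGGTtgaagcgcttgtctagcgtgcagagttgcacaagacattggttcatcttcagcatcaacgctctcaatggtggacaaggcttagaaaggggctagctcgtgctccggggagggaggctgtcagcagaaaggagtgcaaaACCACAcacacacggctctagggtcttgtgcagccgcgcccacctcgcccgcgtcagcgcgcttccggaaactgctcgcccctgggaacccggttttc
The Gja1 window held 1 AP-1 match, at positions -19 to -13 from the RefSeq start, chr10:56377300, which lies 30 bases before the gene start printed above, and no RUNX core. The Panx1 window held the RUNX core at positions -243 to -238 and, on the other strand, at -98 to -93, and no AP-1 match. No GC box lay in either window. Among 32851 RefSeq windows of the same length, 4.46% held an AP-1 match, 14.05% a RUNX core and 32.7% a GC box. These matches describe letters only, and binding was not measured.

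Cdh2 encodes N-cadherin, a calcium-dependent adhesion protein of mesenchymal cells, nerve and heart (ENSMUSG00000024304, chr18:16588877-16809246, minus strand). It was measured at 4.46, 4.34 and 6.63 FPKM in the controls and at 8.83, 7.24 and 8.08 FPKM with nickel. Every Ni library lay above every control, and control replicate 3 was the nearest of the controls to them. The log2 fold change was 0.64 ± 0.16 (SE, n = 3 per group), 1.56-fold with a 95% interval from 1.21 to 2.02. The edgeR adjusted p was 0.258, and 0.000308 without control replicate 3, where the log2 fold change was 0.88. DESeq2's adjusted p on all libraries was 0.0268.

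Cdh11 encodes cadherin 11, named OB-cadherin for its abundance in osteoblasts (ENSMUSG00000031673, chr8:102632095-102785642, minus strand). It stood at 49.9, 47.0 and 52.6 FPKM in the controls and 52.7, 45.8 and 52.8 FPKM with nickel. The groups overlapped, with Ni libraries just above and just below the FPKM range of the controls, and replicate 2 was lowest in both. Its log2 fold change was 0.01 ± 0.11, with a 95% interval from -0.22 to 0.25, or from 0.857-fold to 1.19-fold (edgeR adjusted p 0.970). Of its 50-base stretches, 2.07% also occur in exons of other genes, the largest share among the members.

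The ratio of Cdh11 to Cdh2 was therefore lower with nickel. By FPKM it was 11.2, 10.8 and 7.94 in the controls and 5.97, 6.34 and 6.53 in the Ni libraries. The groups did not overlap, and the mean log2 ratio differed by -0.65 (exact permutation test, two-sided, p = 0.1, the smallest possible). Without control replicate 3 it differed by -0.81. Cdh11 made up 84.7%, 84.3% and 81.1% of the summed cadherin FPKM in the controls and 77.6%, 78.9% and 78.1% with nickel. Cdh2 made up 7.56%, 7.79% and 10.2% in the controls and 13.01%, 12.46% and 11.96% with nickel.

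Cdh13 encodes T-cadherin, which is anchored to the membrane by a lipid, lacks the cytoplasmic tail of other cadherins and is known as a receptor of adiponectin (ENSMUSG00000031841, chr8:118283733-119324921, plus strand). Counts were 234, 235 and 315 in the controls and 481, 325 and 562 with nickel, or 1.13, 1.31 and 1.67 FPKM against 2.32, 1.65 and 2.75 FPKM. Ni replicate 2 lay just under control replicate 3, and the other Ni libraries lay above all controls. Cdh13 had a log2 fold change of 0.71 ± 0.20, 1.63-fold with a 95% interval from 1.19 to 2.24 and an edgeR adjusted p of 0.293. Without control replicate 3 it was 0.88, with an edgeR adjusted p of 0.00966.

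Cdh15 encodes M-cadherin, an adhesion protein of muscle precursor cells (ENSMUSG00000031962, chr8:122847966-122867397, plus strand). It had 1 count in control replicate 2 and none in the other 5 libraries, which allows up to 0.0556 CPM over the Ni group at 3 counts. The skeletal muscle markers Pax7, Myf5, Myod1 and Myog were likewise at 0 in every library. Over the 12 muscle genes listed, 6 were at 0 throughout, and the summed CPM ran from 4.02 to 4.91 in the controls and from 3.20 to 4.89 with nickel. The 3 muscle genes that were tested had log2 fold changes from -1.63 to 0.70. Of these, 1 was lower in Ni at an unadjusted p under 0.05, beside 5.83% of all genes, and none passed an adjusted p of 0.05.

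Of 22 cadherin genes listed, 7 were tested and 7 had no count in any library. Besides the members these were Cdh5, Cdh17, Cdh3 and Cdh24. Cdh5, the VE-cadherin of endothelium, was the most abundant of these, with log2 fold change -0.19 (edgeR adjusted p 0.706), the 1 negative value among the 7. The summed CPM of 10 endothelial markers, Cdh5 among them, ran from 63.9 to 87.4 in the controls and from 58.1 to 62.6 with nickel. Every Ni library lay below every control in this sum. With each gene weighted equally, the mean log2 CPM relative to the controls was -0.03, 0.07 and -0.04 in the controls. With nickel it was 0.09, -0.25 and -0.09, so Ni replicate 1 lay above every control. Log2 fold changes were positive for 4 of the 10 and negative for 6. Pecam1 was lower in Ni at an unadjusted p under 0.05, beside 5.83% of all genes lower. It was the only 1 of the 10 that passed in either direction. Cdh17, known from intestine and from B cells, was at 0.255, 0.112 and 0.398 FPKM in the controls and 0.629, 0.751 and 0.418 FPKM with nickel. Its counts were at most 59 in a library, the groups did not overlap, and its log2 fold change was 1.22 ± 0.44 (edgeR adjusted p 0.323, and 0.0225 without control replicate 3). Cdh3, P-cadherin, had a log2 fold change of 1.02 with an edgeR adjusted p of 0.418.

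**Figure D3:**
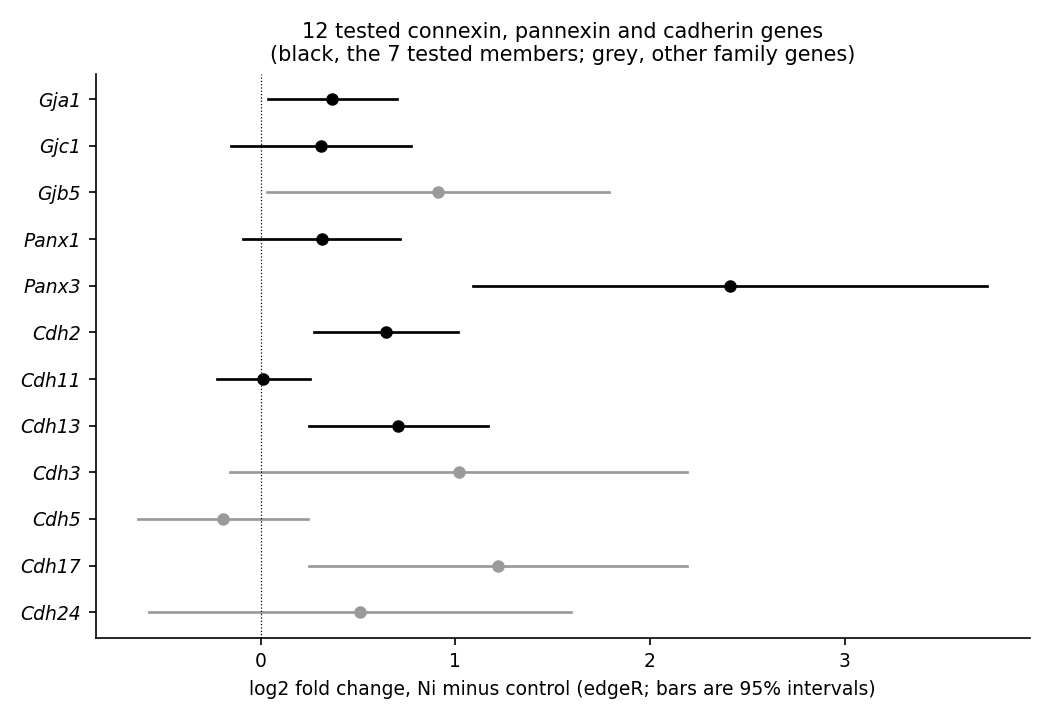
Log2 fold change, Ni minus control, of 12 tested connexin, pannexin and cadherin genes from edgeR on all 6 libraries; points are estimates and bars 95% intervals. Intervals of Gja1, Panx3, Cdh2 and Cdh13, and of Gjb5 and Cdh17 outside the members, lie above 0, that of Cdh11 is centred near 0, and that of Panx3 is the widest among the members, from 1.09 to 3.73.

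Catenins link cadherins to actin, and nectins and plakophilins sit in the same contacts. Of 21 such genes listed, 16 were tested, 13 with a positive and 3 with a negative log2 fold change, and the median was 0.20 beside -0.01 over all genes tested. At an unadjusted p under 0.05 there were 3 higher and 1 lower, beside 7.59% of all genes higher and 5.83% lower, and 9 in either direction without control replicate 3, where 27.4% of all genes passed. Ctnnb1, β-catenin, which binds the cadherin tail and carries Wnt signals, stood at 86.2, 84.7 and 99.9 FPKM in the controls and 114.9, 102.7 and 111.9 FPKM with nickel, with no overlap. Its log2 fold change was 0.28 ± 0.11 (edgeR adjusted p 0.344). Vcl, vinculin, an actin linker of junctions, had 0.32 (edgeR adjusted p 0.347), and Ctnna1, α-catenin, had 0.14 (0.577). Nectin3, an adhesion protein of the same junctions, had 0.59 (edgeR adjusted p 0.295). Pkp4, plakophilin 4, a junctional armadillo protein, had -0.62 (edgeR adjusted p 0.323), with 25.9 and 26.6 FPKM in control replicates 1 and 2 and from 13.4 to 15.7 FPKM in the other 4 libraries, control replicate 3 included.

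All 19 listed genes that bind, modify or accompany connexins were tested. Of these 14 had a positive and 5 a negative log2 fold change, with a median of 0.30. At an unadjusted p under 0.05 there were 8 higher and 2 lower, and 14 in either direction without control replicate 3, where 27.4% of all genes passed. Over all genes on all 6 libraries these shares were 7.59% higher and 5.83% lower. Nedd4, a ubiquitin ligase of connexin 43, stood at 38.5, 34.3 and 52.5 FPKM in the controls and 62.0, 52.6 and 62.2 FPKM with nickel. Ni replicate 2 and control replicate 3 were close together, and the log2 fold change was 0.49 ± 0.16 (edgeR adjusted p 0.306). Src, a kinase that phosphorylates connexin 43, had a log2 fold change of 0.43 (edgeR adjusted p 0.311). Prkcd, protein kinase C delta, had -0.37 (edgeR adjusted p 0.306), with every Ni library below every control. Ni replicate 2 (41.1 FPKM) was close to control replicate 3 (41.5 FPKM). The α-tubulin gene Tuba1a had 0.45 (edgeR adjusted p 0.306) and the β-tubulin gene Tubb5, the most abundant of the list, -0.02 (0.961).

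Genes of extracellular nucleotides, the receptors and enzymes that handle released ATP, did not lean one way. Of 23 listed, 19 were tested, 10 with a positive and 9 with a negative log2 fold change, and the median was 0.04. At an unadjusted p under 0.05 there were 2 higher and 1 lower, a share close to the 13.4% of all genes, and 10 in either direction without control replicate 3, where 27.4% of all genes passed. Entpd3, an ectoenzyme that removes phosphates from ATP, was covered by 13, 4 and 17 counts in the controls and by 65, 39 and 97 with nickel. The groups did not overlap, and its log2 fold change of 2.47 ± 0.48 (edgeR adjusted p 0.208, DESeq2 adjusted p 0.000624) was the largest of this list and close to that of Panx3. P2rx5, an ATP-gated channel, had a log2 fold change of 1.39 (edgeR adjusted p 0.318) from 3 to 28 counts per library. The abundant receptors P2ry6 and P2rx4 had -0.14 and -0.33 (edgeR adjusted p 0.567 and 0.323), and Entpd1, the main ectonucleotidase by level, had 0.17 (0.624).

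The members were also read against the osteoblast markers library by library. On a scale of log2 CPM minus the mean of the controls, Panx3 stood at -0.02, -0.84 and 0.86 in the controls and 2.65, 1.61 and 3.07 in the Ni libraries. The mean of the osteoblast list stood at -0.30, -0.26 and 0.56 in the controls and 1.35, 0.74 and 1.39 in the Ni libraries. In both, control replicate 3 was the highest control and Ni replicate 2 the lowest Ni library. The log2 fold change of Panx3, 2.41, exceeded that of each of the 18 osteoblast markers, whose values ran from 0.54 to 1.84, although its 95% interval reached down to 1.09. Those of Cdh13 and Cdh2 lay within this span, and those of Gja1, Panx1, Gjc1 and Cdh11 lay below it.

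**Figure D4:**
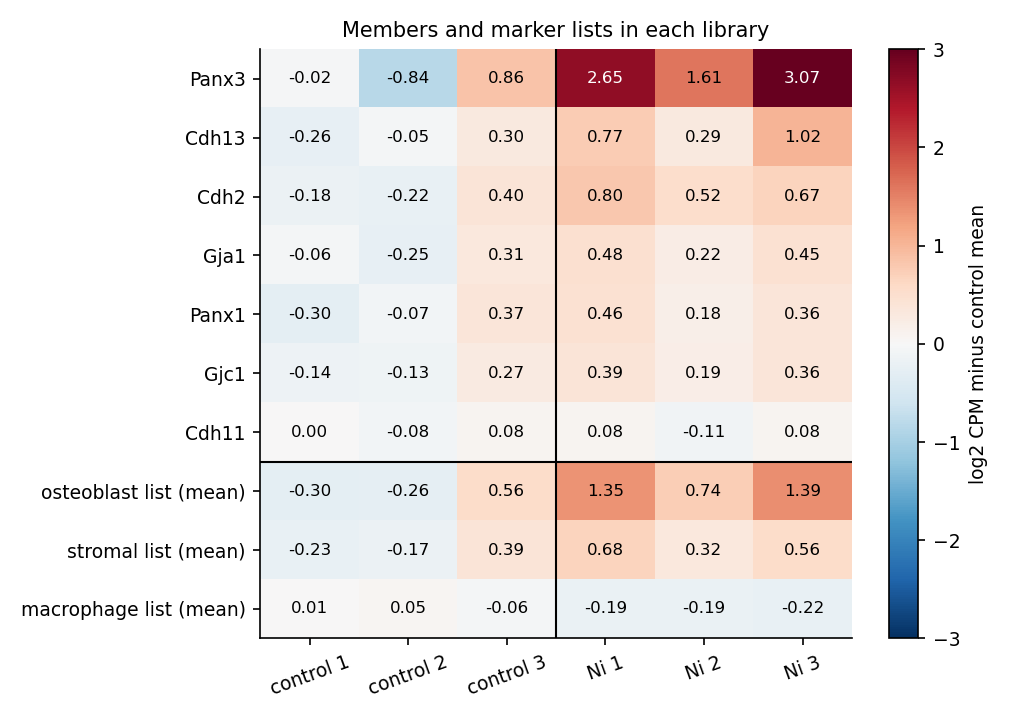
Log2 CPM minus the mean of the 3 controls for the 7 tested members and, below the line, the mean over each of 3 marker lists (18 osteoblast, 10 stromal and 12 macrophage genes), in the 6 libraries. Red is above and blue below the control mean. Panx3 reaches from 1.61 to 3.07 in the Ni libraries, control replicate 3 is above 0 for all 7 members, and the macrophage list runs from -0.19 to -0.22 in the Ni libraries.

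Counted against the osteoblast markers themselves, Panx3 was the 1 member that lay higher in every Ni library. This scale was chosen after values were seen, and the share of all genes that separate on it was not counted. Per 10000 CPM of the summed osteoblast list it had 5.95, 3.25 and 5.90 CPM in the controls and 13.6, 8.73 and 18.59 CPM with nickel. On the same scale Gja1 had 214.8, 183.8 and 148.7 CPM in the controls and 110.9, 122.6 and 110.6 CPM with nickel, every Ni library below every control. Cdh11 had 286.1, 262.1 and 161.8 CPM in the controls and 106.8, 123.8 and 109.1 CPM with nickel. Gjc1, Panx1 and Cdh2 also lay lower in every Ni library on this scale, and Cdh13 overlapped. Gja1, Gjc1, Panx1 and Cdh2, higher on average per library, thus came out lower on this scale, on which no test was run. The divisor was mostly matrix transcripts. In Ni replicate 1, Col1a1 had 14381, Spp1 9999, Col1a2 9190, Ibsp 5333 and Sparc 4306 of its 44056 CPM. It ran from 15624 to 29258 CPM in the controls and from 33344 to 44056 with nickel. A gene that rose less than this sum lies lower here by construction, and one that rose more lies higher. Neither direction is thus particular to these members.

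Profiles most like each member were taken from 9248 protein-coding genes with a mean of at least 10 CPM, by root mean square (rms) difference of the centred log2 CPM over the 6 libraries. For Panx3 they were Car12 (0.277), a carbonic anhydrase, Ibsp (0.389), bone sialoprotein, and Bglap (0.427), osteocalcin, against an rms of 1.39 for Panx3 itself. For Gja1 they were Fam135a, Spata6 and Prrx1, for Gjc1 Epdr1, Aaas and Fam114a1, and for Panx1 Prss23, Cxcr4 and Gpx8. For Cdh2 they were Pdk1, Col6a1 and Fkbp9, for Cdh13 Myom1, Wisp1 and Tnfrsf19, and for Cdh11 Fbxo28, Selenof and Rabep1. With 6 libraries these are descriptions of likeness.

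**Figure D5:**
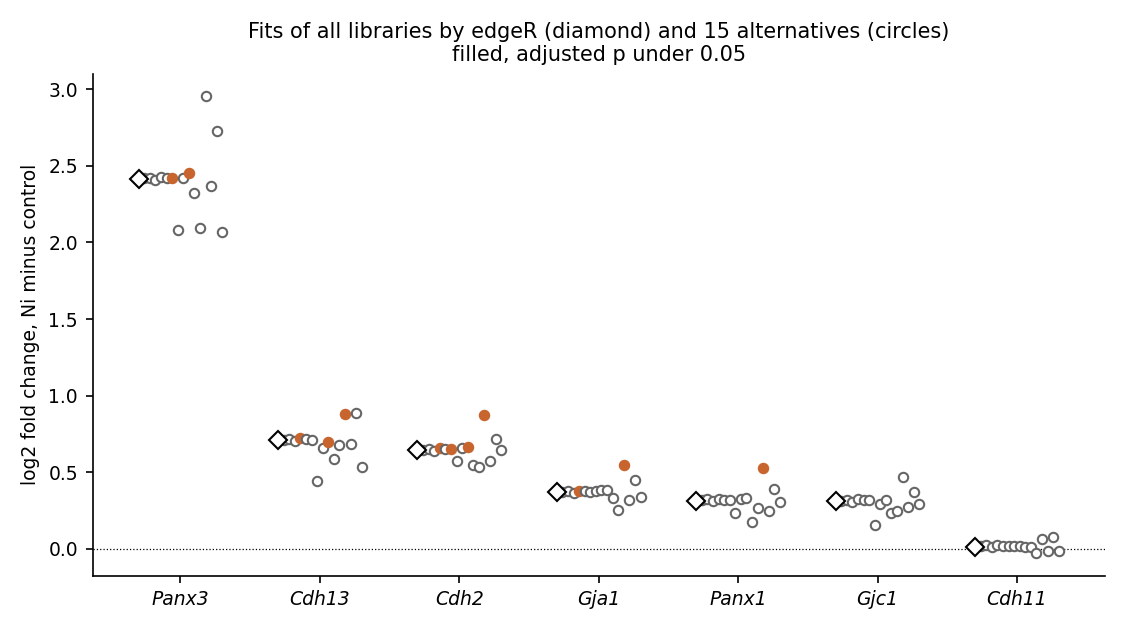
Log2 fold change, Ni minus control, of the 7 tested members under edgeR on all 6 libraries (diamonds) and 15 alternatives of normalization, filter, tool, replicate block and left-out library (circles); filled symbols have an adjusted p under 0.05. Panx3 stays between 2.07 and 2.95, Cdh2 between 0.54 and 0.88, and Cdh11 lies on both sides of 0.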

How the data were processed

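RNA of the 6 cultures was sequenced by the authors from libraries made with the NEBNext Ultra kit, and GRCm38 is the build in the submitters' processing notes. The aligner, the counting tool and the strand setting are not given in the sources used here. The deposited counts are whole reads per gene without normalization. The FPKM values deposited by the authors equal these counts divided by gene length and 1 factor per library (largest relative deviation 4.08e-08 for genes with at least 10 counts). The deposited gene coordinates of the members match GENCODE M21 on GRCm38, and no exon base of a member is shared with another gene there.

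Counts of the 14624 genes kept by filterByExpr entered edgeR 4.0.16 (R 4.3.3) with TMM factors and a robust, two-sided quasi-likelihood F-test, adjusted by the Benjamini-Hochberg method. The SE came from the unshrunk coefficient and F. Alternatives were DESeq2 1.42.0, limma 3.58.1 on log2(FPKM + 1) and log2(FPKM + 0.1), other normalizations and filters, a replicate block and each library left out. Centred log2 CPM used a prior count of 2. Ratios were tested by exact permutation. The scripts were tested on simulated data. Libraries of a group differed by more than counting noise (chi-square per degree of freedom from 4.56 to 47.8). Same-numbered libraries deviated together for replicates 2 and 3 (correlations 0.256 and 0.138) but not 1 (0.0104), so the numbers, whose meaning no source gives, were not taken as pairs.

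Members and gene lists were chosen with earlier results of these data known. Named genes are the members, the 3 most abundant other genes of each list and those with an unadjusted p under 0.05 (at most 4), and the 3 nearest profiles per member. Of the genes under this rule, 2 are not reported here. Cdh24 and the scale per osteoblast marker RNA were chosen after values were seen. Of the 8 members, 3 had a promoter entry.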

Additional observations from a re-analysis of the deposited data

How the results depend on the processing

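The tested members kept a positive log2 fold change in all 15 alternatives except Cdh11, which ran from -0.0265 (without control replicate 2) to 0.0785 (without Ni replicate 2) with 1 library left out and was below 0 without control replicate 2, Ni replicate 1 or Ni replicate 3. The number of calls moved more than the fold changes. At an adjusted p of 0.05 there were 0 genes in edgeR on all libraries, 1027 with no filter on low counts, 256 by DESeq2 and from 0 to 2283 with 1 library left out, the 2283 without control replicate 3. Members past that threshold were 0, 3 with no filter (Gja1, Cdh2 and Cdh13), 2 by DESeq2 (Panx3 and Cdh2) and from 0 to 4 with 1 library left out. Genes at an unadjusted p under 0.05 were 1963, 3057 with no filter and from 868 to 4125 with 1 library left out. With the replicate block, in which the replicate number is a term although no source says that the numbers pair the cultures (same-numbered libraries correlated best with each other for replicates 2 and 3 but not 1), 315 genes and 3 members passed an adjusted p of 0.05, namely Panx3 (4.91e-05), Cdh2 (0.0442) and Cdh13 (0.0444). The causes of these shifts were not tested. Normalization by DESeq2 size factors, upper quartile or library totals, the stricter filter and limma passed no member. Low counts limit Panx2, Cdh15, Cdh17, Entpd3 and P2rx5.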
